A study of Homo sapiens with 27 samples.

Results

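Estrogen can be made, released from storage or removed inside a breast cancer cell by a small set of enzymes, and 10 of their genes were followed here of the 60619 genes quantified: CYP19A1, STS, HSD17B1, HSD17B2, HSD17B8, HSD17B11, SULT1E1, SULT2B1, UGT2B15 and UGT2B7. They were chosen by name for their role, with earlier results of these data known. RNA-Seq had been run on 2 invasive lobular carcinoma cell lines, MDA-MB-134VI (MM134) and SUM44PE, and on variants of each that had grown out during long-term estrogen deprivation (LTED). MM134 was represented by its parental cells and by 4 variants, LTED-A, -B, -D and -E (variants A, B, D and E), and SUM44 by SUM44PE, by SUM44F and by the variants LTED-A and LTED-B, with 3 libraries in each of the 9 groups. SUM44F is SUM44PE moved into the serum-containing medium used for growing these cells, and it served as the parental culture of both SUM44 variants. All parental cells had been without hormone for 3 days when they were harvested, and the LTED variants were kept in charcoal-stripped serum throughout, so parental and LTED cells alike were deprived and differed in how long. Each LTED variant is a clonal outgrowth, so a variant is 1 derivation and its libraries repeat that derivation. The replicates came from cells of a group seeded in parallel wells, so the p-values measure the spread between such wells, which may be technical.

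Estradiol, the strongest natural estrogen, is reached from androgens by aromatase, the product of CYP19A1, or from circulating estrone sulfate. Steroid sulfatase, encoded by STS, frees estrone from that sulfate, and HSD17B1 reduces estrone to estradiol. The opposite steps are oxidation of estradiol back to estrone, for which HSD17B2 is the best known enzyme, sulfation by SULT1E1, which has a high affinity for estrogens, and glucuronidation by the UGT2B enzymes, which also clear androgens. In breast cancers of older women, where the ovary no longer supplies estrogen, local sulfatase and aromatase are known sources of hormone, and aromatase inhibitors act by closing the second of these.

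The libraries held between 28583554 and 134882175 estimated counts, with a median of 44018412. Levels are given as CPM, counts scaled to a common library total, and levels of different genes are compared as CPM per kb of exon. Those of HSD17B1 and HSD17B2 are also set against each other as CPM. A gene was called differentially expressed (DE) when its fold change was above 1.5 and its adjusted p was below 0.001 in edgeR's quasi-likelihood test. In SUM44 LTED-A, replicates 2 and 3 differed less than sampling noise allows (chi-square per degree of freedom of 0.312, against 2.35 to 58.3 in the 26 other pairs), and they were counted as 1 sample, which left 26 samples and n = 2 for that group. Epithelial markers of luminal cells summed to between 4011 and 7037 CPM in every library, although 1 of them, MUC1, was near 0.478 CPM in MM134 parental cells. SUM44F replicate 1 stood apart, as 12 markers of stromal, adipose, endothelial and immune cells summed there to 411.6 CPM, against 47.4 and 40.1 CPM in the other SUM44F libraries and 10.7 to 39.9 CPM in all other groups. The excess lay mostly in stromal markers such as COL3A1 (134.5 against 0.703 and 0.467 CPM), with VWF, PTPRC and CD68 raised less. The adipose markers ADIPOQ and PLIN1 (3.60 against 4.04 and 3.25 CPM) and endothelial PECAM1 (27.3 against 26.8 and 21.7 CPM) did not stand apart. Each enzyme called against SUM44F in an LTED variant is therefore also given without that library. In bulk RNA, fewer cells of a type and less RNA per cell cannot be told apart.

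Of the 10 genes, 4 lie on chromosome 4. UGT2B15 and UGT2B7 belong to the UGT2B cluster and moved together in MM134, and SULT1E1 and HSD17B11 fell together in SUM44. The 250 bases before the start of each of these 4 genes, from the RefSeq promoter table on GRCh38.p14, are shown so that the starts can be compared beside the values that follow. The windows are chr4:68670653-68670902 (minus strand) for UGT2B15, chr4:69096224-69096473 (plus strand) for UGT2B7, chr4:69860146-69860395 (minus strand) for SULT1E1 and chr4:87391189-87391438 (minus strand) for HSD17B11, each written 5′ to 3′ on the strand of its gene. The UGT2B7 window precedes the start used in that table, which lies inside the longer GENCODE span of the gene given with its values, whereas the other 3 windows precede the GENCODE start as well. Capitals mark TATAAA (the TATA box), GTTAAT or its reverse complement (a half-site of the liver factor HNF1), TGACTCA (the AP-1 site) and GGTCA (a half-site of the estrogen response element), searched on both strands.
UGT2B15: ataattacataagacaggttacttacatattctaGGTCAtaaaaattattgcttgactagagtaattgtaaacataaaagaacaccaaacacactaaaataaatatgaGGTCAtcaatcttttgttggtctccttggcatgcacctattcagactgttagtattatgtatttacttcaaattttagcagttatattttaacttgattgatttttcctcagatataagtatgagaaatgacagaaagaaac
UGT2B7: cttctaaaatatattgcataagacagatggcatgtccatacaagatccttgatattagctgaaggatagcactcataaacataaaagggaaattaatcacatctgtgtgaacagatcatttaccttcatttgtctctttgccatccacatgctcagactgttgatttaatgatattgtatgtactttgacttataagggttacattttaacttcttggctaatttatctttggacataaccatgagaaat
SULT1E1: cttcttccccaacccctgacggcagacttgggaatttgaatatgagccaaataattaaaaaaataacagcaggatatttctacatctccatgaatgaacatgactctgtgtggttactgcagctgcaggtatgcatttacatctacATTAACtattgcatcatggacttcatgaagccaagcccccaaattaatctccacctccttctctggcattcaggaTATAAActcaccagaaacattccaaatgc
HSD17B11: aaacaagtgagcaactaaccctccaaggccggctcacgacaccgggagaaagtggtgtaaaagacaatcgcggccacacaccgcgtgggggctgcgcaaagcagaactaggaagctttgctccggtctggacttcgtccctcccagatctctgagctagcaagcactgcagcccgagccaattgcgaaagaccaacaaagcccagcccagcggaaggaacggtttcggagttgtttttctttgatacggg

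UGT2B15 held GGTCA at 2 places, 216 to 212 and 142 to 138 bases before its start, a motif present in 32.6% of the 35116 windows in the table. SULT1E1 had TATAAA 29 to 24 bases before its start, where a TATA box usually lies, and ATTAAC, which is GTTAAT on the opposite strand, 104 to 99 bases before it. TATAAA was found in 10.7% of all windows and GTTAAT in 6.23%, while TGACTCA, found in 4.2%, was in none of the 4 windows printed. UGT2B7 and HSD17B11 held none of the motifs. The bases A and T made up 71.6% of the UGT2B15 window, 67.2% of UGT2B7, 59.2% of SULT1E1 and 44% of HSD17B11, against a median of 42% over all windows. In a global alignment with gaps allowed, the UGT2B15 and UGT2B7 windows shared 157 of 250 bases (62.8%). Windows were found for 8 of the 10 genes.

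**Figure D1:**
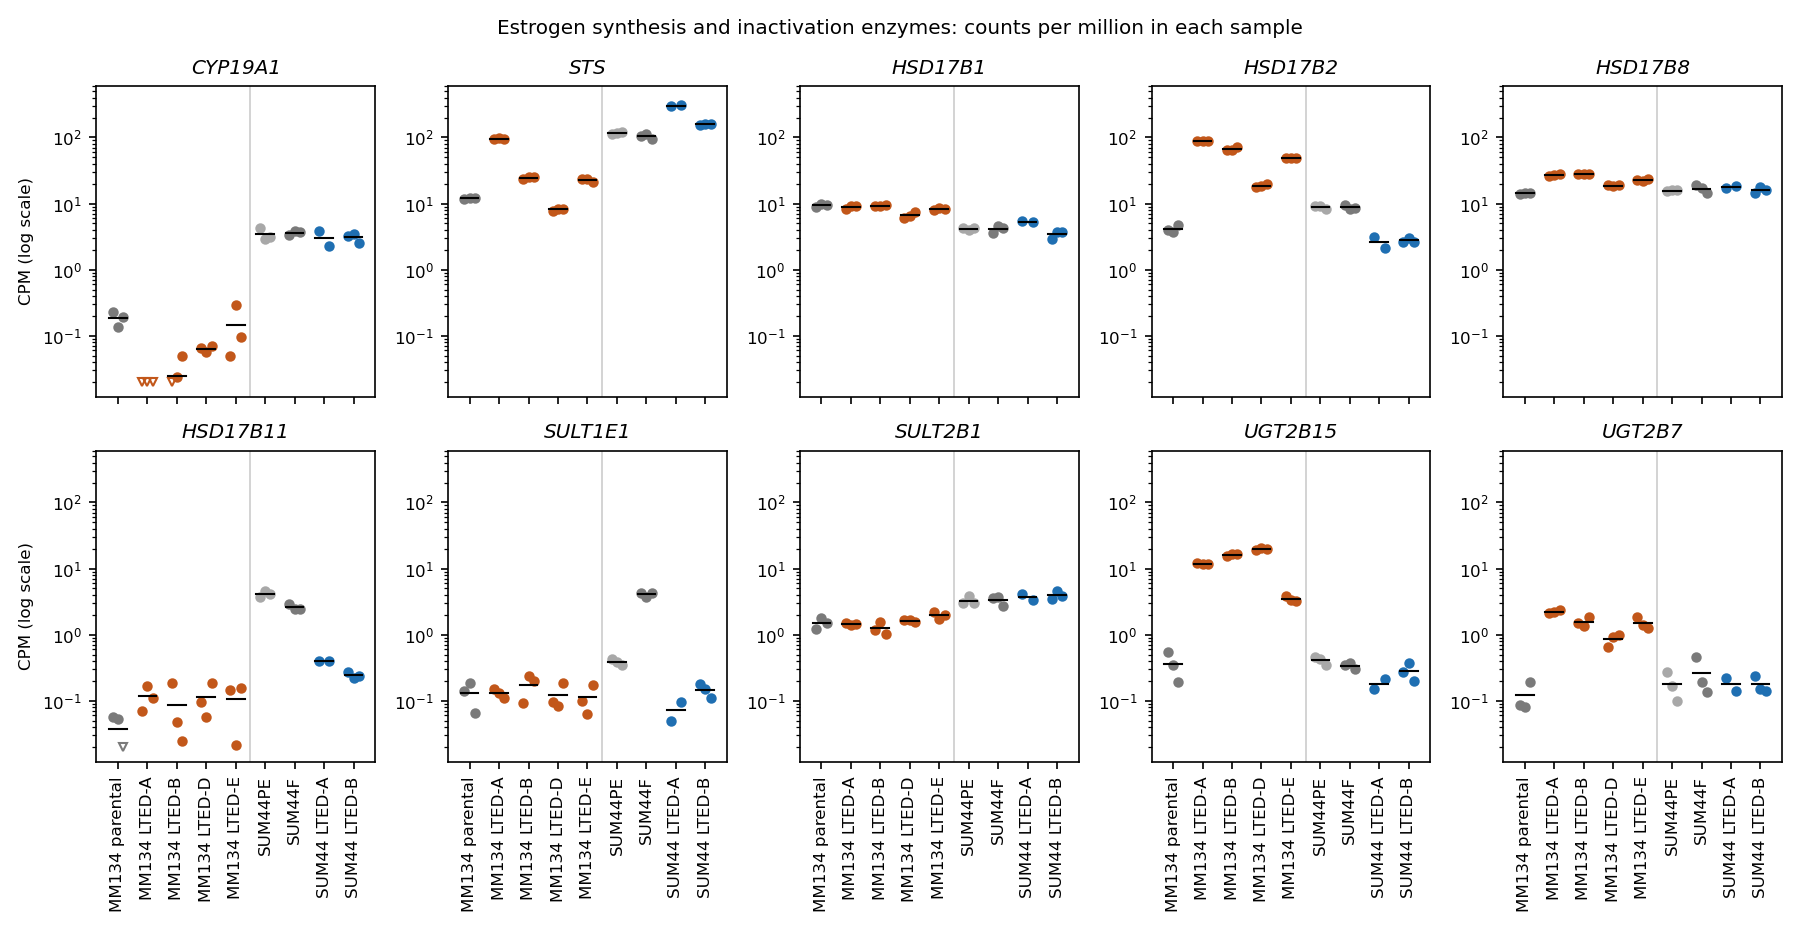
Levels in CPM (log axis) of the 10 enzymes in each of the 26 samples, with MM134 groups left and SUM44 groups right of the grey line in each panel. Points are samples (parental in grey, MM134 LTED in orange, SUM44 LTED in blue), black bars are group means, and open triangles at the foot mark samples below the axis. HSD17B2, UGT2B15 and UGT2B7 were higher in MM134 LTED than in MM134 parental samples, and SULT1E1 stood out in SUM44F alone.

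The routes that make or release estrogen differed between the lines before any long-term deprivation. CYP19A1 (chr15:51208057-51338601 in GRCh38, minus strand), which encodes aromatase, was read in SUM44 at 3.32, 3.88 and 3.66 CPM in SUM44F and at 4.28, 2.89 and 3.15 CPM in SUM44PE. MM134 parental libraries held 8, 5 and 6 counts of it, or 0.135 to 0.229 CPM. The log2 difference of MM134 parental cells from SUM44F was -4.28 (SE 0.34, adjusted p = 5.429e-11, edgeR). CYP19A1 was called higher in no LTED variant. The SUM44 LTED-A samples had 3.804 and 2.30 CPM, while LTED-B libraries had 3.19, 3.48 and 2.54 CPM. Both ranges overlap that of SUM44PE, and the log2 fold changes against SUM44F were -0.27 (adjusted p = 0.4, SE 0.22) and -0.25 (adjusted p = 0.3371, SE 0.20). The MM134 variants had 1 count or none per library in LTED-A, 0, 1 and 2 counts in LTED-B, 2, 2 and 3 in LTED-D and 2, 14 and 5 in LTED-E. These levels were too low for the filter on low counts, which left CYP19A1 untested in MM134. By counting error alone, the summed counts per depth were 38.3 times higher in MM134 parental cells than in LTED-A (95% exact interval 6.09 to 1590), 7.73 times higher than in LTED-B (2.28 to 40.8) and 2.89 times higher than in LTED-D (1.16 to 8.14). Tested without the filter, CYP19A1 was lower in LTED-A (adjusted p = 3.347e-05) and missed the threshold in LTED-B (adjusted p = 0.005864), with log2 differences of -1.50 in LTED-D (adjusted p = 0.1292) and -0.30 in LTED-E (adjusted p = 0.8383) that missed it too.

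STS (chrX:7147237-7804358, plus strand) encodes the sulfatase that frees estrone and DHEA from their sulfates, and it rose in 5 of the 6 LTED variants. MM134 parental libraries had 11.6, 12.2 and 12.2 CPM. In MM134 LTED-A the values were 94.3, 96.7 and 95.0 CPM, in LTED-B 23.5, 25.2 and 24.9 CPM, in LTED-E 23.4, 23.8 and 21.1 CPM and in LTED-D 7.84, 8.25 and 8.40 CPM. Variants A, B and E lay above every parental library, and LTED-D lay below every one. The log2 fold changes were 2.98 (adjusted p = 1.2e-19, SE 0.05) in LTED-A, 1.03 (adjusted p = 2.084e-12, SE 0.05) in LTED-B and 0.93 (adjusted p = 7.299e-12, SE 0.05) in LTED-E. The difference of -0.54 in LTED-D (adjusted p = 1.351e-07, SE 0.06) passed the p threshold but stayed under the fold minimum.

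SUM44 cells held far more STS message to begin with. SUM44F had 106.7, 114.1 and 94.1 CPM and SUM44PE 111.0, 118.8 and 119.1 CPM, and the log2 difference of MM134 parental cells from SUM44F was -3.13 (adjusted p = 6.481e-23, SE 0.06). From that level SUM44 LTED-A reached 295.1 and 304.5 CPM, the highest level of STS in the series, and LTED-B 156.7, 162.2 and 157.1 CPM. The libraries of both variants lay above all 6 SUM44 parental libraries. The log2 fold change was 1.52 (adjusted p = 4.213e-07, SE 0.09) in LTED-A and 0.60 (adjusted p = 0.0001439, SE 0.08) in LTED-B, where the fold of 1.511 only just passed the minimum. Without SUM44F replicate 1 the values were 1.53 and 0.61. In LTED-B the call was lost without SUM44F replicate 3 (0.52, under the fold minimum) and without LTED-B replicate 1, 2 or 3 (adjusted p = 0.001111, 0.0015 and 0.001117). Averaged over variants, the LTED effect on STS differed between MM134 and SUM44 by 0.04 on the log2 scale (adjusted p = 0.951, SE 0.07), and that average covers MM134 variants from -0.54 to 2.98.

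HSD17B1 (chr17:42552922-42555214, plus strand), the reductase that turns estrone into estradiol, was called in no LTED comparison. Its level ranged from 6.10 to 9.95 CPM over all MM134 libraries and from 2.92 to 5.46 CPM over all SUM44 libraries, so the ranges of the lines did not overlap. MM134 parental cells had 9.40 ± 0.56 CPM (n = 3, SD) and SUM44F 4.13 ± 0.55 CPM (n = 3, SD), and the parental difference was 1.18 on the log2 scale (adjusted p = 1.153e-10, SE 0.10). MM134 LTED-D had the lowest MM134 level, 6.67 ± 0.63 CPM (n = 3, SD), with a log2 fold change of -0.48 (adjusted p = 1.864e-05, SE 0.07) that was under the fold minimum. HSD17B1 lies beside a pseudogene copy, HSD17B1P1, and how reads were divided between them is uncertain.

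HSD17B2 moved in opposite directions in the 2 lines. The gene (chr16:82035004-82098534, plus strand) encodes the dehydrogenase that oxidizes estradiol to estrone and testosterone to androstenedione. MM134 parental libraries had 3.97, 3.72 and 4.70 CPM. All 12 MM134 LTED libraries were above 18 CPM, with LTED-A at 87.2, 88.3 and 89.1 CPM, LTED-B at 64.8, 64.8 and 70.7 CPM, LTED-E at 48.3, 48.8 and 49.1 CPM and LTED-D at 18.1, 18.4 and 19.5 CPM. The 4 variants did not overlap one another. Log2 fold changes were 4.42 (adjusted p = 1.196e-20, SE 0.06) in LTED-A, 4.03 (adjusted p = 1.035e-19, SE 0.06) in LTED-B, 3.58 (adjusted p = 3.709e-19, SE 0.06) in LTED-E and 2.20 (adjusted p = 2.107e-15, SE 0.06) in LTED-D.

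In SUM44 the same gene fell. SUM44F had 9.39, 8.34 and 8.65 CPM of HSD17B2 and SUM44PE 9.05, 9.35 and 8.34 CPM. SUM44 LTED-A had 3.16 and 2.13 CPM and LTED-B 2.65, 3.04 and 2.66 CPM, all below every parental library of either line. The log2 fold change was -1.75 in LTED-A (adjusted p = 2.987e-05, SE 0.18) and -1.66 in LTED-B (adjusted p = 1.21e-05, SE 0.16), or -1.71 and -1.61 without SUM44F replicate 1. The mean LTED effect was higher in MM134 than in SUM44 by 5.28 on the log2 scale (adjusted p = 1e-19, SE 0.12).

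**Figure D2:**
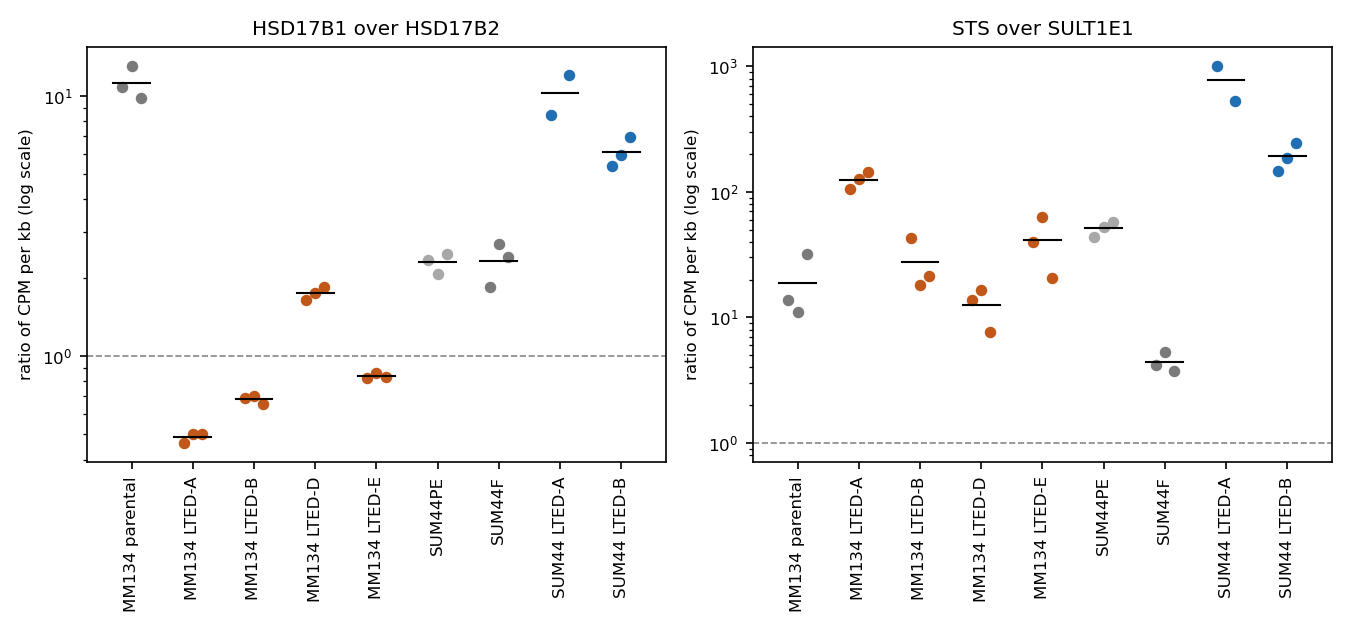
Ratio of levels per kb of exon in each sample (log axis) for HSD17B1 over HSD17B2 (left) and STS over SULT1E1 (right), with points for samples, bars for group means and a dashed line at equal levels. HSD17B1 over HSD17B2 was below that line in MM134 variants A, B and E and above it in every other group, and STS over SULT1E1 was highest in the SUM44 LTED variants. Which groups lie below the line depends on the exon lengths used.

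Set against each other per kb of exon, the reductase HSD17B1 and the oxidase HSD17B2 changed places in 3 of the 4 MM134 variants. The level of HSD17B1 was 11.2 ± 1.66 times that of HSD17B2 in MM134 parental cells (n = 3, SD) and 0.490 ± 0.022, 0.682 ± 0.027 and 0.837 ± 0.021 times in variants A, B and E (n = 3 each, SD). LTED-D had a ratio above 1, at 1.75 ± 0.098 (n = 3, SD). In SUM44 the ratio went the other way, from 2.31 ± 0.44 in SUM44F and 2.30 ± 0.21 in SUM44PE (n = 3 each, SD) to 10.2 ± 2.55 in LTED-A (n = 2, SD) and 6.09 ± 0.78 in LTED-B (n = 3, SD). HSD17B2 was called in each of these LTED comparisons and HSD17B1 in none. They are ratios of message per kb and say nothing of enzyme activity. The lengths used, 9.529 kb for HSD17B2 and 1.951 kb for HSD17B1, join all annotated exons, and which ratios fall below 1 depends on them. In CPM alone, HSD17B2 was also above HSD17B1 in MM134 LTED-D (18.6 against 6.67), SUM44F (8.79 against 4.13) and SUM44PE (8.91 against 4.18). It stayed below HSD17B1 in MM134 parental cells and in both SUM44 variants.

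HSD17B8 (chr6:33204655-33206831, plus strand), which can oxidize estradiol and also serves mitochondrial fatty acid synthesis, rose modestly in MM134. Parental libraries had 14.1, 14.3 and 14.2 CPM, LTED-A 25.8, 27.4 and 27.7 CPM, LTED-B 28.4, 28.1 and 28.2 CPM, LTED-E 23.0, 21.8 and 23.3 CPM and LTED-D 18.9, 18.3 and 18.8 CPM. Every LTED library was above every parental library. The log2 fold changes were 0.92, 0.99 and 0.68 in variants A, B and E (SE 0.04 each) and 0.41 in LTED-D (SE 0.04), which was under the fold minimum. No SUM44 comparison of HSD17B8 was called, and its SUM44 libraries lay between 14.3 and 19.0 CPM in all 4 groups. HSD17B8 sits within the major histocompatibility region of chromosome 6, where 15, 14, 16 and 15 of the 43 coding genes tested within 1 Mb were also higher in MM134 variants A, B, D and E, against 10.5%, 8.11%, 9.63% and 8.71% of all genes. The class II genes HLA-DPA1 (log2 fold changes of 8.60, 5.18, 7.07 and 7.02) and HLA-DMB (6.03, 3.98, 5.38 and 5.92) were among them. In SUM44, 2 of 43 neighbours were higher in each variant, against 6.39% and 8.69% of all genes in LTED-A and LTED-B. Another 1 and 8 were lower, against 7.28% and 8.57% of all genes. The windows around genes were chosen after values had been seen, and the part of the region in the HSD17B8 values was not tested.

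HSD17B11 (chr4:87336515-87391188, minus strand), a lipid droplet enzyme that oxidizes androgen metabolites, was read mainly in SUM44 cells. SUM44F had 2.86, 2.48 and 2.48 CPM and SUM44PE 3.71, 4.599 and 4.08 CPM, a difference of 0.66 on the log2 scale (adjusted p = 0.003546, SE 0.14) that was not called. In the variants it fell, with 0.395 and 0.394 CPM for LTED-A and 0.271, 0.222 and 0.240 CPM for LTED-B. The log2 fold changes were -2.72 (adjusted p = 3.664e-06, SE 0.21) and -3.41 (adjusted p = 3.027e-07, SE 0.20), or -2.65 and -3.35 without SUM44F replicate 1. MM134 libraries held between 0 and 9 counts, with 2, 2 and 0 in the parental cells, and HSD17B11 was untested there. Summed counts per depth were 66.3 times higher in SUM44F than in MM134 parental cells (95% exact interval 25.7 to 244, counting error only). Its chromosomal neighbours DMP1 (log2 fold changes of -7.47 and -8.61), MEPE (-5.98 and -6.56) and SPARCL1 (-2.32 and -2.82), which lie within 1 Mb, also fell in SUM44 LTED-A and LTED-B, where 4 and 7 of 15 coding neighbours tested were lower, against 7.28% and 8.57% of all genes. Another 3 and 2 of the 15 were higher, against 6.39% and 8.69% of all genes. Fitted values of genes with few counts, such as DMP1 and MEPE, depend on the fit's prior. The neighbours were not refitted without SUM44F replicate 1. Whether any of them was tested through SUM44F alone was not examined, so a difference may be built into their counts.

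SULT1E1 (chr4:69841212-69860145, minus strand), the estrogen sulfotransferase, exceeded 1 CPM in 1 of the 9 groups. SUM44F libraries had 4.34, 3.67 and 4.23 CPM, from 200, 188 and 380 counts. SUM44PE, the same line kept in its original medium, had 0.434, 0.380 and 0.353 CPM, with a log2 difference of -3.40 from SUM44F (adjusted p = 1.331e-07, SE 0.20). SUM44 LTED-A had 0.049 and 0.096 CPM and LTED-B 0.181, 0.148 and 0.109 CPM. Against SUM44F the log2 fold changes were -5.61 (adjusted p = 2.596e-07, SE 0.30) and -4.88 (adjusted p = 1.096e-07, SE 0.25). SULT1E1 passed the filter on low counts in SUM44 through the SUM44F libraries alone, so a difference from SUM44F was built into its being tested. Without SUM44F replicate 1 the values were -5.56 in LTED-A, -4.84 in LTED-B and -3.35 in SUM44PE. MM134 libraries held between 2 and 15 counts, and the log2 difference of MM134 parental cells from SUM44F was -4.89 (adjusted p = 3.365e-13, SE 0.30).

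Per kb of exon, STS stood 4.40 ± 0.78 times above SULT1E1 in SUM44F and 51.1 ± 7.1 times in SUM44PE (n = 3 each, SD). In the SUM44 variants the ratio was 773 ± 337 in LTED-A (n = 2, SD) and 192 ± 48.7 in LTED-B (n = 3, SD), both above all parental libraries, with 2 to 11 counts of SULT1E1 behind each value. MM134 ratios went from 18.8 ± 11.3 in parental cells to 125 ± 19.0 in LTED-A, and in variants B, D and E they were 27.4 ± 13.5, 12.7 ± 4.6 and 41.3 ± 21.5 (n = 3 each, SD). Of the MM134 variants, LTED-A and no other lay wholly above the parental libraries in the plotted ratios.

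SULT2B1 (chr19:48552172-48599425, plus strand), which sulfates cholesterol and DHEA, was called in no LTED comparison. It ranged from 1.02 to 2.20 CPM in MM134 and from 2.68 to 4.55 CPM in SUM44, again without overlap between the lines. The log2 difference of MM134 parental cells from SUM44F was -1.13, MM134 being lower (adjusted p = 2.605e-06, SE 0.17). The largest LTED difference was 0.39 in MM134 LTED-E (adjusted p = 0.04766, SE 0.16).

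Glucuronidation genes of the UGT2B cluster rose in MM134, and neither UGT2B15 nor UGT2B7 was called in SUM44. UGT2B15 (chr4:68646597-68670652, minus strand), which conjugates androgens and some estrogens, had 0.543, 0.351 and 0.194 CPM in MM134 parental libraries, from 19, 13 and 6 counts. LTED-A reached 12.2, 11.5 and 11.8 CPM, LTED-B 15.4, 16.7 and 16.7 CPM, LTED-D 18.8, 20.4 and 19.4 CPM and LTED-E 3.802, 3.35 and 3.25 CPM. All variants lay far above the parental libraries, and LTED-D, lowest among the variants for STS, HSD17B2 and HSD17B8, was the highest for UGT2B15. Log2 fold changes were 4.99 (adjusted p = 6.564e-16, SE 0.14), 5.46 (adjusted p = 2.398e-16, SE 0.14), 5.73 (adjusted p = 9.421e-17, SE 0.14) and 3.23 (adjusted p = 6.654e-12, SE 0.17) in variants A, B, D and E. In SUM44 its level stayed between 0.148 and 0.461 CPM in all libraries, with no call. UGT2B17, a near-identical copy, had 0 counts in MM134 parental libraries and 0 to 15 counts per library in the variants, and reads shared between the copies may have been split.

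UGT2B7 (chr4:69051363-69112987, plus strand), which glucuronidates estrogens and catechol estrogens, had 3, 3 and 6 counts in MM134 parental libraries, or 0.086, 0.081 and 0.194 CPM. LTED-A had 2.14, 2.19 and 2.38 CPM, LTED-B 1.49, 1.35 and 1.86 CPM, LTED-E 1.88, 1.42 and 1.26 CPM and LTED-D 0.645, 0.926 and 0.998 CPM. Each LTED library was above each parental library. The log2 fold changes were 4.22 (adjusted p = 2.836e-10, SE 0.28), 3.71 (adjusted p = 6.57e-09, SE 0.30), 3.67 (adjusted p = 6.123e-09, SE 0.30) and 2.88 (adjusted p = 7.687e-07, SE 0.34) in variants A, B, E and D. UGT2B7 was tested in MM134 through its LTED libraries alone, as no parental library reached the filter's cutoff. SUM44 libraries held 4 to 21 counts and gave no call.

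**Figure D3:**
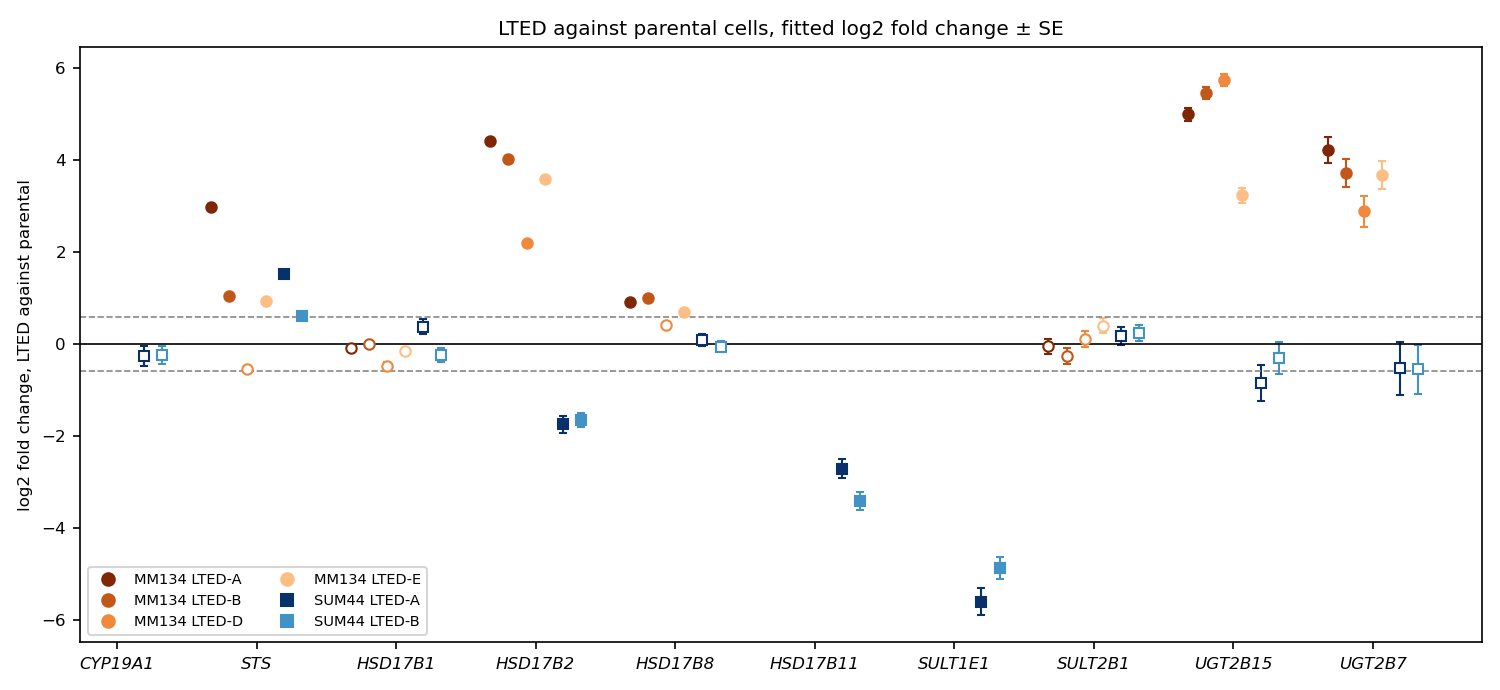
Fitted log2 fold change (± SE) of each enzyme in the 6 LTED variants against their parental cells. Filled symbols are DE, open symbols are not, dashed lines mark the fold minimum of 1.5, and a gene with no MM134 symbol (CYP19A1, HSD17B11, SULT1E1) was not tested in MM134. HSD17B2 lay between 2.20 and 4.42 in MM134 and at -1.75 and -1.66 in SUM44.

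The UGT2B members did not rise alone. Within 1.5 Mb of UGT2B15, 28 genes were tested in MM134, and 6, 7, 7 and 7 of them, UGT2B15 and UGT2B7 included, were higher in variants A, B, D and E, with none lower. Of all genes, 10.5%, 8.11%, 9.63% and 8.71% were higher. UGT2B7 and UGT2B10 reached the filter's cutoff in no parental library, so a difference was built into their being tested. The same may hold for other counted genes with few parental counts, and the counts do not support more than the remaining genes do. UGT2B4, a bile acid glucuronosyltransferase, went from 0.566 ± 0.098 CPM in parental cells to 127 ± 2.2, 601 ± 20.8, 688 ± 14.0 and 49.4 ± 1.2 CPM (n = 3 each, SD), with log2 fold changes of 7.81, 10.06, 10.26 and 6.46 (SE 0.06 to 0.07). UGT2B11 rose by 2.78, 4.15, 4.39 and 3.65. UGT2B10 had at most 3 counts in any parental library, and its summed counts per depth were 49.6 times higher in LTED-A (95% exact interval 22.7 to 136, counting error only). For LTED-B this ratio was 6.01 (2.55 to 17.2), for LTED-D it was 8.45 (3.64 to 24) and for LTED-E 14.1 (6.26 to 39.1). UGT2B10 and UGT2B11 are close copies, and how reads were divided between them is uncertain. At the edges of the cluster the sulfotransferase SULT1B1 and the RNA-binding protein gene YTHDC1 were not called. Their distances and those of the UGT2B genes are shown in the plot of the neighbourhood.

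**Figure D4:**
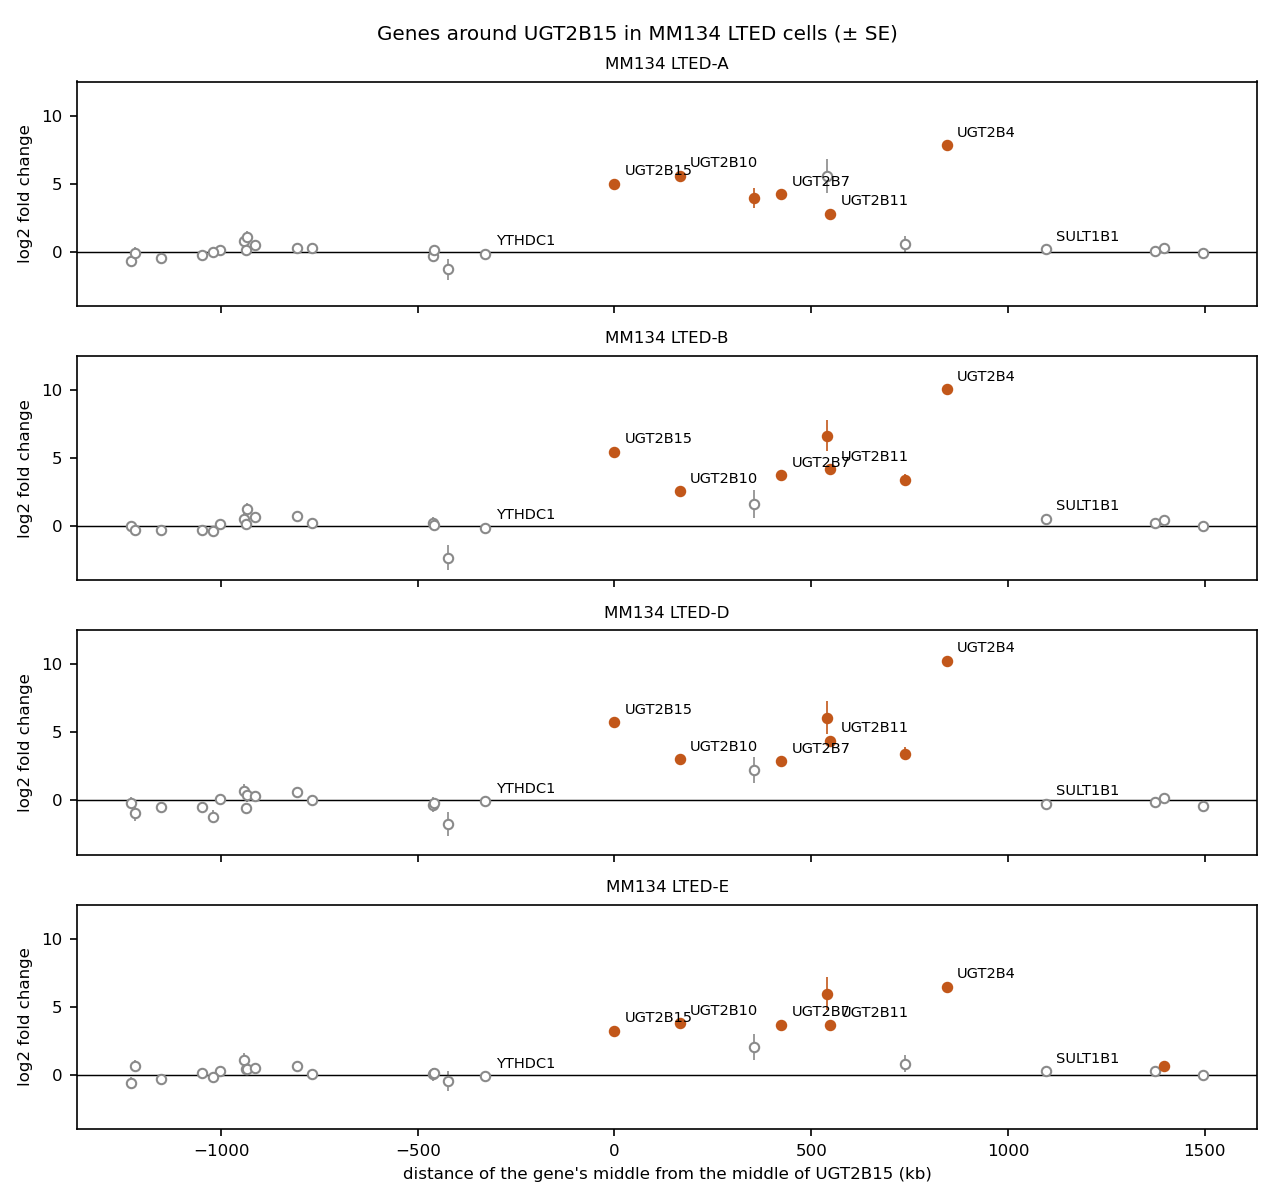
Fitted log2 fold change (± SE) of the 28 genes tested within 1.5 Mb of UGT2B15, against the distance of each gene's middle from that of UGT2B15 in kb, for the 4 MM134 LTED variants. Filled orange points are DE, open grey points are not, and fitted values of genes with few parental counts depend on the fit's prior. UGT2B4 was the highest point in every variant (6.46 to 10.26), and UGT2B15 (3.23 to 5.73) and UGT2B7 (2.88 to 4.22) were filled in every variant, while YTHDC1 and SULT1B1 were open in every variant.

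Counted together, 7 of the 10 enzymes were tested in MM134. Of these, 5 were higher in LTED-A, where 10.5% of all 26061 genes tested were higher, and 5 in LTED-B (8.11% of all genes), 3 in LTED-D (9.63%) and 5 in LTED-E (8.71%). None was lower, with 9.82%, 7.75%, 7.95% and 10.3% of all genes lower in variants A, B, D and E. The genes higher in all 4 variants were HSD17B2, UGT2B15 and UGT2B7, of which UGT2B7 had to differ to be tested. The median log2 fold change of the 7 was 2.98, 1.03, 0.41 and 0.93, against -0.01, 0.02, -0.03 and 0.02 over all genes. In SUM44 all 10 passed the filter, and each variant had 1 higher gene (STS) and 3 lower (SULT1E1, HSD17B2 and HSD17B11), of which SULT1E1 had to differ from SUM44F to be tested. Of all 26834 genes, 6.39% were higher and 7.28% lower in SUM44 LTED-A, and 8.69% and 8.57% in LTED-B. The medians of the 10 were -0.40 and -0.28, against -0.06 and -0.09 over all genes. Both variants share the SUM44F libraries, and the MM134 variants share their parental libraries, so the columns of values are not independent of one another.

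The mean LTED effect differed between the lines for 6 of the 10 enzymes, where 20.9% of all 29200 genes differed. HSD17B2, HSD17B8 (difference of 0.72, SE 0.09), UGT2B15 (5.42, SE 0.29), UGT2B7 (4.14, SE 0.52), SULT1E1 (5.24, SE 0.42) and HSD17B11 (4.44, SE 0.68) were all higher in the MM134 effect. For SULT1E1 and HSD17B11 the fall in SUM44 is set against MM134 libraries with 0 to 15 counts. The HSD17B11 difference is larger than its fall in SUM44. Without the filter, its log2 fold changes in the MM134 variants were 1.11 to 1.53, none called, against 2, 2 and 0 parental counts. SULT1E1 entered through SUM44F and UGT2B7, in MM134, through its LTED libraries, so for this pair a difference was built into being tested, and the count of 6 does not support more than its other members do. Without SUM44F replicate 1 the UGT2B7 difference was 3.53. CYP19A1 differed by -2.07 (adjusted p = 0.003156, SE 0.54) and was not called. Between the parental cells, 7 of the 10 differed, against 38.1% of all 29608 genes, and of these HSD17B1 alone was higher in MM134. SULT1E1 and HSD17B11, among the 7, reached the MM134 filter's cutoff in no MM134 library and were tested through SUM44 libraries. A parental difference was thus built into their being tested, and the count of 7 does not support more than its other members do. SUM44PE and SUM44F differed in SULT1E1 only, 1 gene of 10, where 5.57% of all genes were called.

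The variants of a line also differed among themselves. Of the 7 enzymes tested in MM134, 5 differed among the 4 variants, against 19.6% of all genes. The highest variant was above the lowest by 3.52 on the log2 scale for STS (LTED-A over LTED-D, adjusted p = 1.211e-19), by 2.22 for HSD17B2 (LTED-A over LTED-D, adjusted p = 1.419e-16), by 2.504 for UGT2B15 (LTED-D over LTED-E, adjusted p = 2.515e-13), by 1.34 for UGT2B7 (LTED-A over LTED-D, adjusted p = 7.595e-05) and by 0.59 for HSD17B8 (LTED-B over LTED-D, adjusted p = 6.806e-10). No single variant led for all of them. In SUM44, STS was higher in LTED-A than in LTED-B by 0.92 (adjusted p = 3.116e-05, SE 0.09), the only one of the 10 called, where 7.42% of all genes were.

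**Figure D5:**
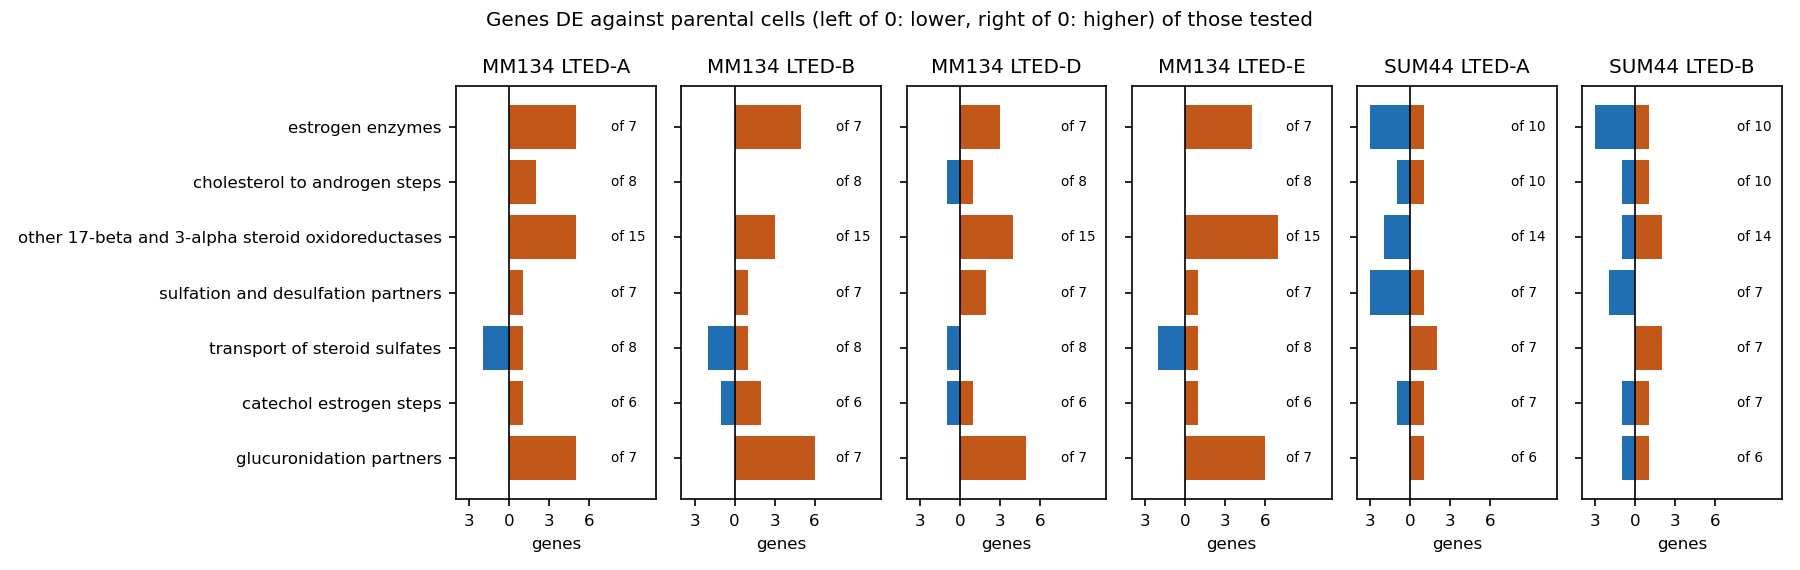
Number of genes DE against parental cells in each list of steroid pathway genes, for the 6 LTED variants, with genes lower drawn left of 0 in blue and genes higher drawn right of 0 in orange, and the number tested beside each bar. The glucuronidation partners had 5 or 6 of 7 genes higher in the MM134 variants, of which UGT2B10 was tested through its LTED libraries alone. In the SUM44 variants 1 of 6 was higher, and 1 was lower in LTED-B.

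The genes around these enzymes in the pathway were read from lists chosen by function. Their counts stand beside the shares of all genes called, which were 10.5%, 8.11%, 9.63% and 8.71% higher and 9.82%, 7.75%, 7.95% and 10.3% lower in MM134 variants A, B, D and E. For the SUM44 variants A and B they were 6.39% and 8.69% higher and 7.28% and 8.57% lower. Glucuronidation partners (other UGT genes, the supply of UDP-glucuronic acid and its transport) had 5, 6, 5 and 6 of 7 tested genes higher in MM134 variants A, B, D and E and none lower, and in SUM44 1 of 6 was higher in each variant and 0 and 1 lower. UGDH, which makes UDP-glucuronic acid, rose from 81.1 ± 1.6 CPM to 614 ± 9.7, 422 ± 14.8, 490 ± 14.9 and 717 ± 17.96 CPM (n = 3 each, SD), with log2 fold changes of 2.92, 2.38, 2.61 and 3.15. It also rose in SUM44, by 1.01 in LTED-A and 1.27 in LTED-B, so the cosubstrate enzyme moved up in both lines and the UGT2B genes in MM134. SLC35D1, which carries UDP-glucuronic acid into the endoplasmic reticulum, rose in all 4 MM134 variants by 0.74 to 0.86. UGT2B10, counted as higher in this list, was tested in MM134 through its LTED libraries alone, so its difference was built in.

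Among the other steroid oxidoreductases, 5, 3, 4 and 7 of 15 tested genes were higher in MM134 variants A, B, D and E and none was lower, where 8.11% to 10.5% of all genes were higher, and in SUM44 0 and 2 of 14 were higher and 2 and 1 lower. SRD5A2, a reductase that makes dihydrotestosterone from testosterone, moved in the same directions as HSD17B2. It rose in MM134 by 6.25, 4.63, 3.20 and 4.07 on the log2 scale, from 2 to 6 counts in parental libraries. No MM134 parental library thus reached the filter's cutoff, so a difference was built into its being tested and counted there. In SUM44 LTED-A and LTED-B, SRD5A2 fell by 2.001 and 1.87. AKR1C2, which inactivates dihydrotestosterone and has close copies among which reads may have been split, rose by 6.93 in MM134 LTED-A, 1.60 in LTED-B and 6.14 in LTED-E, with 0.72 in LTED-D not called, and SRD5A3 rose in all 4 by 1.40 to 1.54.

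The steps from cholesterol to androgens gave 2, 0, 1 and 0 of 8 tested genes higher and 0, 0, 1 and 0 lower in the MM134 variants and 1 of 10 higher and 1 lower in each SUM44 variant, where 6.39% to 10.5% of all genes were higher. CYB5A, the cytochrome that aids the lyase step toward androgens, rose in MM134 LTED-A by 0.94 and fell in SUM44 by 2.40 and 1.05, and TSPO, a mitochondrial outer membrane protein linked to cholesterol handling, rose by 0.69 and 0.76. Sulfation and desulfation partners gave 1, 1, 2 and 1 higher of 7 and none lower in MM134, where 8.11% to 10.5% of all genes were higher, and in SUM44 1 and 0 higher and 3 and 2 lower, where 7.28% and 8.57% of all genes were lower. SULT1A2, a phenol sulfotransferase that can act on estrogens, fell in SUM44 by 2.51 and 2.24 and SULT1A1 by 0.63 and 0.80, the same direction as SULT1E1, while SUMF2, a relative of the factor that activates sulfatases, rose by 0.61 to 0.69 in 3 MM134 variants. SULT1A1 and SULT1A2 are near-identical copies, and their shares are uncertain.

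Among the transporters of steroid sulfates, 2 uptake carriers were higher in SUM44 variants and lower in MM134 variants. SLCO2B1, an uptake carrier of estrone sulfate, rose in SUM44 from 1.20 ± 0.95 CPM in SUM44F (n = 3, SD) to 75.1 ± 2.5 CPM in LTED-A (n = 2, SD) and 9.92 ± 0.76 CPM in LTED-B (n = 3, SD), with log2 fold changes of 6.06 and 3.14. The SUM44F libraries spread from 0.579 to 2.30 CPM, the highest being replicate 1. In MM134 it fell by 1.78, 1.77 and 1.96 in variants A, B and E. SLCO4A1 followed the same split, rising by 2.60 and 1.54 in SUM44 and with log2 fold changes of -1.80 to -1.18 in MM134. SLCO3A1 rose by 0.75 to 0.97 in 3 MM134 variants. Of the list, 2 of 7 genes were higher in each SUM44 variant and none lower, and 1, 1, 0 and 1 of 8 were higher and 2, 2, 1 and 2 lower in the MM134 variants, so the higher count in MM134 was near the share of all genes (8.11% to 10.5%). Among catechol estrogen genes, 1, 2, 1 and 1 of 6 were higher and 0, 1, 1 and 0 lower in MM134, and 1 of 7 was higher and 1 lower in each SUM44 variant, counts of 0 to 2 that do not set the list apart from all genes. NQO1, which reduces estrogen quinones, rose in all 4 MM134 variants by 1.30 to 3.24.

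Among steroid hormone receptor genes, PGR, the progesterone receptor and an estrogen target, fell in all 4 MM134 variants, with log2 fold changes from -4.33 to -2.17. ESR1, the estrogen receptor, fell by 1.27 in MM134 LTED-A and was not called in the others, and it rose in SUM44 by 1.30 and 1.25. Of the 9 markers of other cell types tested in MM134, 3, 2, 3 and 2 were higher and 2, 1, 1 and 2 lower, where 8.11% to 10.5% of all genes were higher and 7.75% to 10.3% lower. CD68, a lysosomal protein used as a macrophage marker, rose by 6.11, 5.04, 4.28 and 3.66 beside the UGT2B genes. PECAM1, an endothelial marker, rose by 0.78 to 2.21 in variants A, D and E and fell by 3.70 and 2.90 in the SUM44 variants, the directions of HSD17B2, while COL1A1, a fibroblast collagen, fell by 0.75 to 1.59 in all 4 MM134 variants. In SUM44, 2 of 11 markers tested were lower in each variant, against 7.28% and 8.57% of all genes in LTED-A and LTED-B. None was higher, against 6.39% and 8.69% of all genes. At least 1 CPM was reached by 3 of the 12 markers in MM134 parental cells and by 4, 4, 7 and 3 in variants A, B, D and E. The summed level of the 12 markers did not rise with them (24.4 to 39.9 CPM in MM134 parental libraries, 15.3 to 38.1 CPM in the variants), and LUM, a stromal marker, had 0 counts in LTED-B. The part of these markers in the enzyme values was not tested.

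The genes whose group means tracked each enzyme most closely were found as a description, by Pearson's r of log2(CPM + 1) over the 9 groups among 17153 genes, where groups of a line share their origin. UGT2B15 was closest to UGT2B4 (r = 0.987) and ACSM3 (0.983), UGT2B7 to LRRC31 (0.992) and FCGBP (0.991), and HSD17B2 to TLR5 (0.984) and FCGBP (0.977). STS had no match above 0.972 (TBC1D20), with AJUBA at 0.962, and HSD17B8 was closest to MAN2B1 (0.971) and ANKFN1 (0.954). HSD17B1 was closest to its copy HSD17B1P1 (0.985) and LINC01521 (0.984). Genes that mainly separate the lines or a single group have many near-perfect matches over 9 points, as for SULT1E1 (RHOXF2 and SLC2A12, both 0.999), CYP19A1 (HFE and TNFRSF10B, both 0.998), HSD17B11 (LINC02997 at 0.995 and LOXL4 at 0.994) and SULT2B1 (API5 at 0.992 and ANKHD1-EIF4EBP3 at 0.991).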

How the data were processed

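The deposited table holds estimated counts per gene, which the authors made with Salmon 0.6.0 against Ensembl release 82 (GRCh38) from 27 RNA-Seq libraries. They are not whole numbers and were rounded. Symbols, exon lengths and positions came from GENCODE release 44, which held 56434 of the 60619 gene IDs. Groups were taken from the sample titles. Counts were normalized with TMM, filtered with filterByExpr and tested two-sided with edgeR 4.0.16 (quasi-likelihood F-test, R 4.3.3) with Benjamini-Hochberg adjustment over all genes tested, each line in its own fit and differences between lines in joint fits. DE followed the study's thresholds, a fold above 1.5 and an adjusted p below 0.001. The test was checked on simulated counts. Alternatives were DESeq2 1.42.0, RLE size factors, other filters and thresholds, thinning, a replicate block, and leaving out each library. Named partners were those DE in the same direction in at least 3 MM134 or both SUM44 variants, up to 4 per list by mean absolute change. Exact intervals of count ratios cover counting error only, and depth limited calls on genes with few counts. The 10 genes, lists and windows were chosen with earlier results of these data known.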

Additional observations from a re-analysis of the deposited data

Results flagged for a closer look

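The LTED effect differed between MM134 and SUM44 by a test of the difference itself for 6 enzymes. Averaged over variants, the log2 fold change was larger in MM134 than in SUM44 by 5.24 for SULT1E1, 5.28 for HSD17B2, 0.72 for HSD17B8, 4.44 for HSD17B11, 5.42 for UGT2B15 and 4.14 for UGT2B7. For HSD17B2 the direction itself was opposite, higher in 4 of 4 MM134 variants and lower in 2 of 2 SUM44 variants. For HSD17B8, UGT2B15 and UGT2B7 the SUM44 variants gave no call, and for SULT1E1 and HSD17B11 the MM134 libraries held at most 15 counts. SULT1E1 was tested in SUM44 through SUM44F alone and UGT2B7 in MM134 through its LTED libraries alone, so a difference was built into their being tested.

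Variants of 1 line differed from each other in 5 enzymes in MM134. The highest variant exceeded the lowest on the log2 scale by 3.52 for STS, 2.22 for HSD17B2, 0.59 for HSD17B8, 2.5 for UGT2B15 and 1.34 for UGT2B7. In SUM44, STS was higher in LTED-A than in LTED-B by 0.92. Each variant is 1 derivation, so these are differences between clones.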

How the results depend on the processing

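Requiring at least 10 counts in every sample left 5 enzymes testable in MM134 and 6 in SUM44, and the number DE was then 3, 3, 1 and 3 in MM134 variants A, B, D and E, 2 and 1 in SUM44 LTED-A and LTED-B, 0 in SUM44PE against SUM44F, 4 between parental cells, 2 for the difference between lines and 3 among MM134 variants. Fewer genes were tested, and in SUM44 LTED-B STS also went under the fold minimum. With no fold minimum LTED-D had 6. A fold minimum of 2 gave 3 in LTED-E and 0 between the SUM44 variants. An adjusted p below 0.05 gave 2 in SUM44PE against SUM44F and 2 between the SUM44 variants, as did all 9 groups in 1 fit for the latter. Leaving out 1 library gave 5 to 6 in MM134 LTED-A, 5 in LTED-B and LTED-E, 3 in LTED-D, 4 in SUM44 LTED-A, 3 to 4 in SUM44 LTED-B, 1 in SUM44PE, 7 between parental cells, 6 to 7 between lines, 4 to 6 among MM134 variants and 1 between SUM44 variants.

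Of 1736 single-gene alternative values, 1726 kept their side of the thresholds, and none called in the main or the alternative fit changed direction. Values that were not called could change sign, as UGT2B7 in SUM44 LTED-A did without SUM44F replicate 1 (0.09 against -0.53). The 6 calls lost were all STS in SUM44 LTED-B (0.56 with at least 10 counts, 0.57 when thinned, 0.52 without SUM44F replicate 3, and 3 when a LTED-B library was left out). The 4 gained were STS in MM134 LTED-D when thinned (-0.59), CYP19A1 between lines with DESeq2 (-2.25) and without MM134 LTED-E replicate 2 (-2.31), and HSD17B1 between the SUM44 variants in the 9-group fit (0.61). Same-numbered replicates did not deviate together (correlations of -0.261 to 0.185), so the numbers were not taken as pairs. The replicate block kept the counts at 5, 5, 3, 5, 4, 4, 1, 7, 6, 5 and 1 and changed no call. CYP19A1, SULT1E1 and HSD17B11 were too low for the filter in MM134, with at most 15 counts per library at these depths.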
